A study of Homo sapiens with 16 samples.

Results

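H3K27ac peaks were examined at 9 lymphoid lineage genes in K562, a human chronic myelogenous leukemia line with erythroid features. The T cell genes were CD3E, CD3D, CD4, CD8A and CD2, and the B cell genes were CD79A, MS4A1, PAX5 and EBF1. They were listed by name because lymphoid genes are expected to be silent in this line, and they make up 9 of 19970 protein-coding genes of the RefSeq table of GRCh38. A peak belonged to a gene when it had a −log10 q of at least 2 and shared at least 1 bp with the gene body extended by 5 kb on either side, here called the window. This gave 246 of 1065840 peaks. Peaks of different lists that shared bases were joined into regions, of which 30 of 170284 lay in the 9 windows. A region was called consistent when all 14 lists had a peak in it, sporadic when 1 to 3 lists did, and intermediate otherwise.

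The 14 ChIP libraries came from fixed chromatin of untreated K562 cells and 1 lot of an anti-H3K27ac antibody, with 1 library per condition. In the fixed-antibody arm, 0.25 µg of antibody was incubated with 312, 625, 1250, 2500, 5000, 10000 or 20000 ng of chromatin, measured as its DNA content (DNAchrom), at titers of 32, 16, 8, 4, 2, 1 and 0.5. These libraries are H3K27ac-0.31-T32, H3K27ac-0.62-T16, H3K27ac-1.25-T8, H3K27ac-2.5-T4, H3K27ac-5-T2, H3K27ac-10-T1a and H3K27ac-20-T0.5. In the normalized arm, the antibody was scaled to titer 1 for the same amounts, in H3K27ac-0.31-T1, H3K27ac-0.62-T1, H3K27ac-1.25-T1, H3K27ac-2.5-T1, H3K27ac-5-T1, H3K27ac-10-T1b and H3K27ac-20-T1. The first number of a name is DNAchrom in µg and T is the titer, and the shared first part of the names is left out from here on. Each arm was called against its own input library, so arm and input cannot be told apart, and neither can titer and DNAchrom within the fixed-antibody arm. The lists held 64083 to 82143 peaks at this threshold, with a median of 78386.5, and covered 32.8 to 75.3 Mb. They hold no read counts, so the depth behind a single peak is unknown here, and they measure acetylation, not RNA. The libraries were made from dilutions of chromatin, so p-values refer to the spread between these libraries only.

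H3K27ac is placed on nucleosomes by the acetyltransferases CBP and p300 and marks active promoters and enhancers. CD3D and CD3E are subunits of the CD3 complex that passes on signals from the T cell receptor, CD4 and CD8A are its coreceptors, and CD2 is an adhesion receptor of T and NK cells. CD79A is a signalling subunit of the B cell receptor, MS4A1 encodes CD20, and PAX5 and EBF1 are transcription factors that establish B cell identity.

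The 9 genes fell into 3 groups. Peaks were present in all 14 lists at CD3D, CD2 and CD79A, that is at 3 of 9 genes, compared with 58.5% of all protein-coding genes. CD3E had a peak in 12 lists and CD4 in 7, so 2 of 9 genes had peaks in 1 to 13 lists, compared with 13.7%. No list had a peak at CD8A, MS4A1, PAX5 or EBF1, which is 4 of 9 genes, compared with 27.8%. The windows of 5 of the 9 genes thus held a peak in some list. Whether these genes were silent cannot be read from this, since RNA was not measured. Peaks within 1 kb of the TSS were present in 14 lists at CD79A only, 1 of 9 genes, compared with 47.7% of 19617 genes with a known strand. CD3D had such a peak in 9 lists and CD4 in 1 list. The other 6 genes had none in any list, compared with 39% of all genes.

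**Figure D1:**
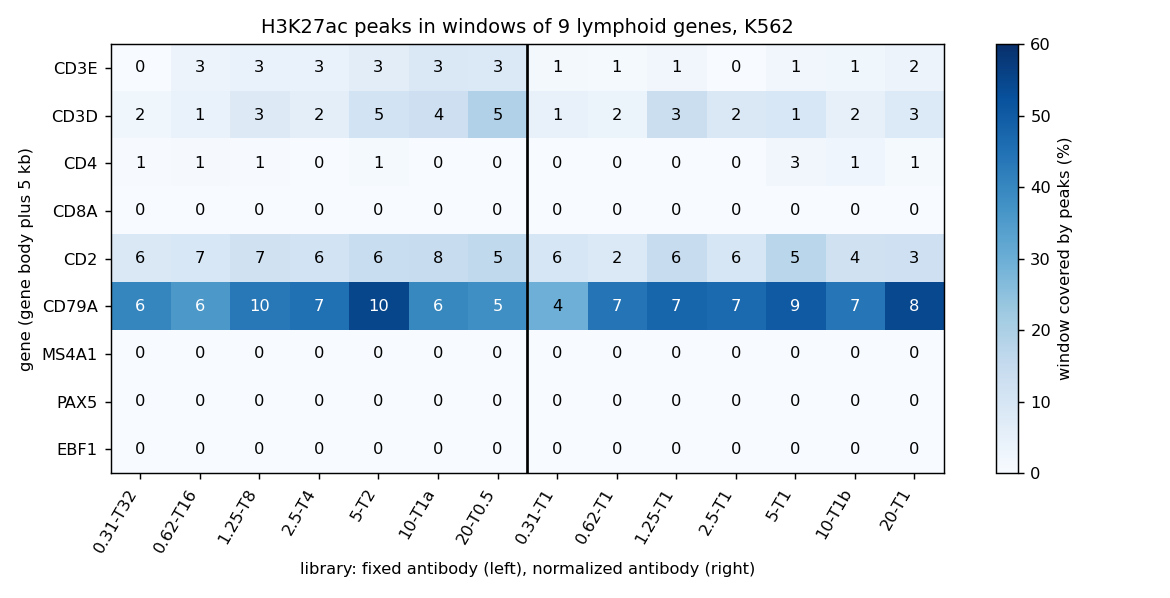
Each row is a gene and each column a library, with the fixed-antibody arm left of the line. Color gives the percent of the window covered by peaks, and the number in each cell is the number of peaks. CD79A was covered to 29.8% to 54.8%, and the rows of CD8A, MS4A1, PAX5 and EBF1 hold 0 in all 14 libraries.

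As a check of the cell line, 12 of 14 erythroid genes had a peak within 1 kb of the TSS in all 14 lists, and so did ACTB, GAPDH, PABPC1 and SMARCA4. MYT1, the negative qPCR locus of the study, had such a peak in 0 lists. Its window of gene body plus 5 kb nevertheless had a peak in 14 lists. A peak in the window thus did not set a gene apart from this negative locus. In a wider set of lymphoid genes without the 9, the TSS had a peak within 1 kb in all 14 lists for 2 of 20 T cell genes (CD7 and UBASH3A) and 2 of 18 B cell genes (RAG1 and TNFRSF13C). LEF1 followed with 13 lists and CD5 with 12, CD72 with 13 and IKZF3 with 10. No list had such a peak for 11 of the 20 T cell genes and 11 of the 18 B cell genes. The median gene of both sets and of the 9 genes had such a peak in 0 lists, and the median of all genes was 13 lists. Peaks that also lay near the TSS of another gene were kept in these counts.

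Promoters of genes with and without peaks are shown here for description, as RefSeq sequences of GRCh38.p14, from 250 bases before to 50 bases after the gene start. CD79A (chr19:41877029-41877328, plus strand) and CD3D (chr11:118342656-118342955, minus strand) had peaks close to the TSS. CD2 (chr1:116754180-116754479, plus strand) had no peak within 1 kb of the TSS and its consistent region in the gene body, and PAX5 (chr9:37034219-37034518, minus strand) had none. CpG dinucleotides are in capitals.
CD79A: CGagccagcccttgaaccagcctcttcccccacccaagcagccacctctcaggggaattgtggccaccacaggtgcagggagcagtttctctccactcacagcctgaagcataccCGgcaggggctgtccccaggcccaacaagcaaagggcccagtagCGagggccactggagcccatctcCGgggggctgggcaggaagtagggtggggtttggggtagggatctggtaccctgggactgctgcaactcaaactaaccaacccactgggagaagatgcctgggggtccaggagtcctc
CD3D: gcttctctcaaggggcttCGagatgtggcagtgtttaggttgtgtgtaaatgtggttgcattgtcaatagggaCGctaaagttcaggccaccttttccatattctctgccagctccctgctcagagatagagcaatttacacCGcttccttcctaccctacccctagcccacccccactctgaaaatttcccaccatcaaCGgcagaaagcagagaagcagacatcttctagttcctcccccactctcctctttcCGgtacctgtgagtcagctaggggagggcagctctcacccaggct
CD2: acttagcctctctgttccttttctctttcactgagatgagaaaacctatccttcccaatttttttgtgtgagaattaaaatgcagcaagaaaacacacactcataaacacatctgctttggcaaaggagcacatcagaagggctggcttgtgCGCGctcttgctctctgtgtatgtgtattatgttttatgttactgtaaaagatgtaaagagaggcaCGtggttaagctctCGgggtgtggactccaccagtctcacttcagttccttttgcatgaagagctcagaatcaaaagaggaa
PAX5: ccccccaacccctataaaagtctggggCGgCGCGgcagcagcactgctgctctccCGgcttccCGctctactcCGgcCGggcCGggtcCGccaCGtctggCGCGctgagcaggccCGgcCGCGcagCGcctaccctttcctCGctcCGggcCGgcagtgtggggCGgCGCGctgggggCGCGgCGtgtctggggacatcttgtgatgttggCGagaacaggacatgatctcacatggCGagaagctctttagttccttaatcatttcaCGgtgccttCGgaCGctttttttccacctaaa
The CD79A promoter was overlapped by peaks in 14 lists and the CD3D promoter in 5, whereas the CD2 and PAX5 promoters were overlapped in 0. CD79A held 4 CpG, CD2 4 and CD3D 5, and the median of 22155 promoters was 21. Among the genes with no peak, PAX5 held 30 CpG, more than 71.0% of promoters, EBF1 held 8, and the 4 promoters of CD8A held 6, 16, 18 and 25. The EBF1 promoter belongs to a gene start at 159097956, whereas distances were measured from the TSS at 159099916. Of the CD8A promoters, the one with 16 CpG lies at the TSS used for distances. No difference in base composition was tested.

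Motifs were searched on both strands, and matches of different motifs were allowed to overlap. The table held 9 promoters of 6 of the genes (4 of them for CD8A), and CD3E, CD4 and MS4A1 were not matched. The GATA core GATAA and the EBF motif TCCCNNGGG matched in 0 of the 9, compared with 18.6% and 9.82% of all promoters. The RUNX motif TGTGGT matched in CD3D and in CD79A, compared with 11.3%. TATAAA matched in PAX5 only, compared with 9.47%. The E-box CANNTG matched in 7 of the 9 and CACCC in 8 of the 9, compared with 65.1% and 63.4%. CG was found in all 9 and in 98.1% of all promoters. These are matches of letters, and binding was not measured.

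CD3D (NCBI gene 915, chr11:118338954-118342705, minus strand) had 36 peaks in 8 regions, none of them in all 14 lists. The covered length of its window of 13752 bp was 318, 1068 and 2619 bp (lowest, median, highest) with fixed antibody and 436, 1101 and 1822 bp with normalized antibody, so the arms overlapped. The leading region spanned the end of the gene, at chr11:118338847-118340501, and had peaks in 12 lists with a fold enrichment of 3.55 to 7.68. It was absent in 0.31-T32 and 0.62-T16 and present in all 7 normalized lists. Fold enrichment is the authors' ratio of ChIP signal to the expected background.

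The CD3D region next to the TSS differed between the arms. Peaks at chr11:118341923-118342586, inside the gene and 119 bp from the TSS at its nearest base, were present in all 7 fixed-antibody lists and in 0 normalized lists. The same pattern was seen at 22 regions genome-wide, 0.0129% of all, and it was singled out after its values had been seen. Its fold enrichment was 3.61, 4.04 and 4.69 (lowest, median, highest), from the 12.6th to the 49.5th percentile of the peaks of the same list, and its peaks covered 163 to 578 bp. The pair made with the same titer and amount also differed here, as 10-T1a had a peak with a fold of 3.61 and 10-T1b had none. Among peaks with a lower −log10 q in the deposited lists, 1 normalized list had a peak in this region. On the other side of the TSS, chr11:118342777-118343530 had peaks in 4 fixed-antibody and 2 normalized lists, with folds of 3.41 to 4.79. The TSS of CD3G, another CD3 subunit, lies in the same window, 814 bp from that region.

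CD3E (NCBI gene 916, chr11:118304730-118316173, plus strand) had 25 peaks in 4 regions, and 3 of these regions lay downstream of the gene. The region with the most lists, chr11:118318764-118320515, began 14.03 kb from the TSS and had peaks in 6 lists of each arm. Its highest fold per list was 3.62, 4.85 and 6.17 (lowest, median, highest) in the fixed-antibody arm and 3.92, 4.58 and 7.51 in the normalized arm. The libraries without it were 0.31-T32 and 2.5-T1. Regions nearer to the gene, at chr11:118316226-118316741 and chr11:118317047-118317319, had peaks in 4 and 2 lists, all of the fixed-antibody arm. Inside the gene body there was 1 peak, of 191 bp and a fold of 4.69, in 10-T1a.

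CD2 (NCBI gene 914, chr1:116754430-116769229, plus strand) had 77 peaks, and the consistent region of its window lay inside the gene. This region, chr1:116757019-116760166, began 2.6 kb downstream of the TSS and spanned 3148 bp. Its highest fold with fixed antibody was 7.35, 4.65, 7.10, 6.17, 8.08, 10.5 and 13.96 from titer 32 down to 0.5. At titer 1, it was 9.14, 9.32, 10.8, 8.84, 11.4, 11.4 and 12.1 from 0.31 to 20 µg. The 5 libraries with titers of 2 and more thus lay below all 7 normalized libraries, whereas 10-T1a and 20-T0.5 lay among or above them. These folds stood at the 50.7th to 91.7th percentile of their lists. Downstream, chr1:116760366-116762586 had peaks in 12 lists and chr1:116762604-116764228 in 13, with highest folds of 5.63 and 6.38. A weaker region at chr1:116765678-116766125 had peaks in 0.31-T32 and in the normalized library of 1250 ng. The peak nearest to the TSS was 1.34 to 3.37 kb away.

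CD79A (NCBI gene 973, chr19:41877279-41881372, plus strand) had 99 peaks in 6 regions, 3 of them consistent. Its window of 14094 bp also holds parts of RPS19, which encodes a ribosomal protein, and of ARHGEF1, a guanine nucleotide exchange factor for RhoA. The median list covered 43.9% of the window, and 95.8% of protein-coding genes had a lower mean cover. The region over the CD79A TSS, chr19:41876527-41880654, ran from 0.752 kb upstream to 3.38 kb downstream. Its highest fold was 5.04, 6.90 and 9.53 (lowest, median, highest) in the fixed-antibody arm and 5.75, 6.54 and 11.4 in the normalized arm, and the arms overlapped. It ended 2530 bp before the TSS of ARHGEF1.

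The region over the ARHGEF1 TSS, chr19:41880959-41884143, was stronger. Its highest fold was 6.57, 8.67 and 11.9 in the fixed-antibody arm and 10.4, 11.9 and 15.5 in the normalized arm. Within ARHGEF1, chr19:41884382-41888482 had folds of 4.40, 6.33 and 8.48 and of 7.13, 9.32 and 11.5. Upstream, chr19:41871107-41872843 had peaks in 12 lists, of which 8 reached into the window. The next regions by number of lists were chr19:41875928-41876204, in 3 fixed-antibody lists with a highest fold of 6.25, and chr19:41875502-41875884, in 3 normalized lists with a highest fold of 6.05. When peaks within 1 kb of the TSS of another gene were left out, CD79A still had a peak in 14 lists.

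**Figure D2:**
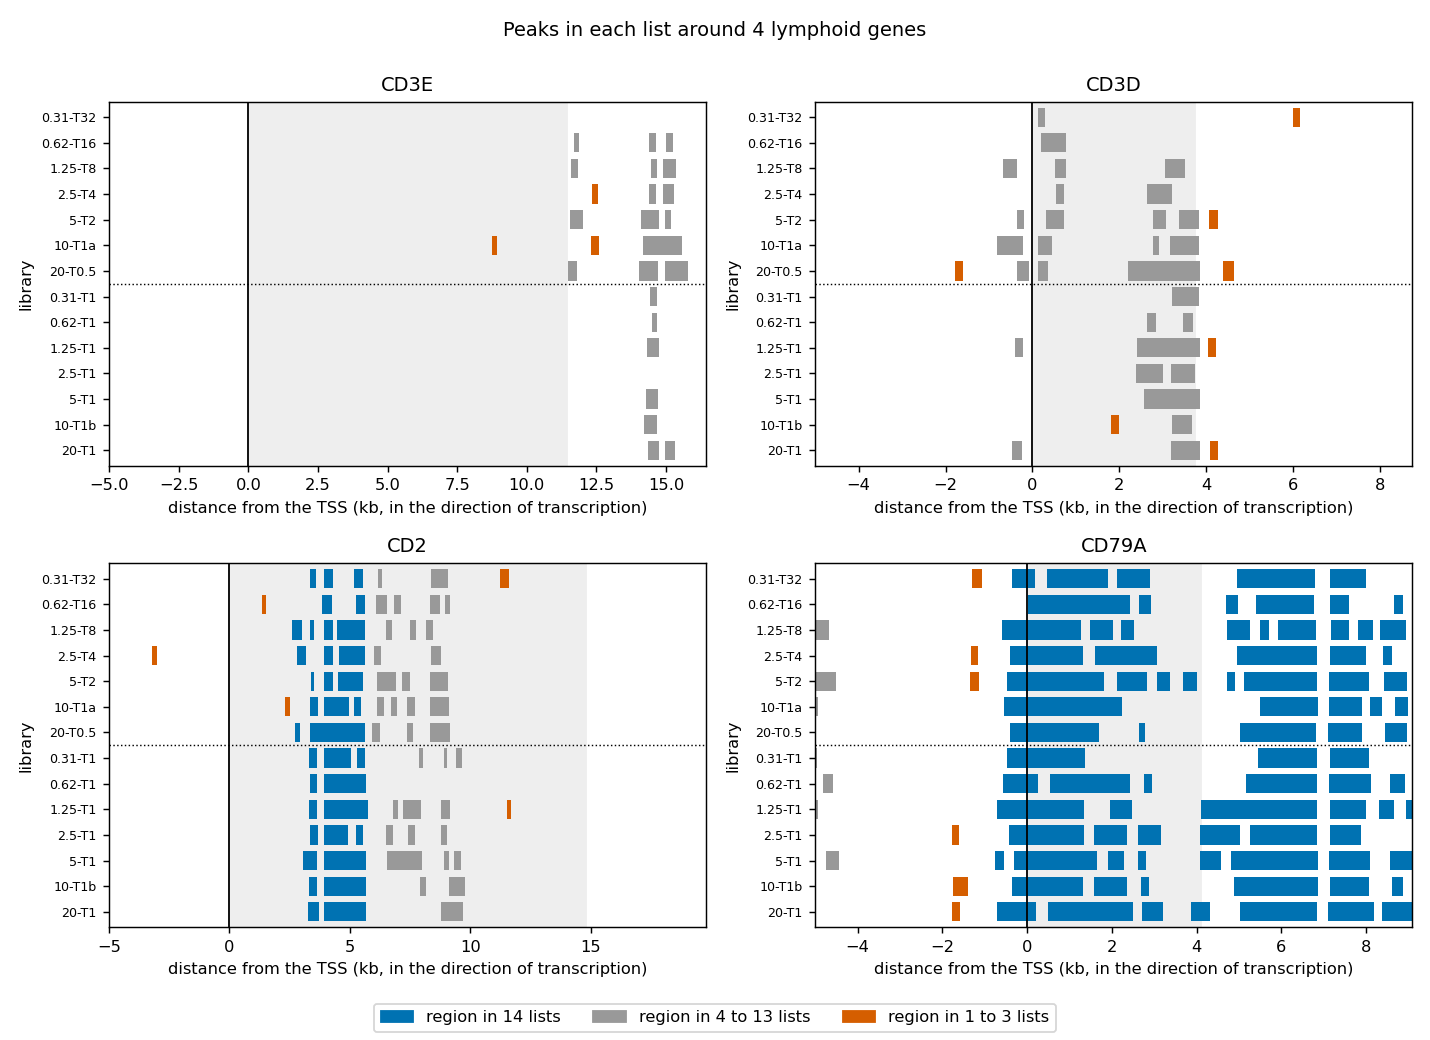
Bars are the peaks of each list, drawn by distance from the TSS of CD3E, CD3D, CD2 and CD79A, with the gene body shaded and the fixed-antibody arm above the dotted line. Blue regions had a peak in 14 lists, gray in 4 to 13 and orange in 1 to 3. The gray bars just right of the CD3D TSS occur in the 7 fixed-antibody lists only, at a −log10 q of at least 2.

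CD4 (NCBI gene 920, chr12:6789528-6820799, plus strand) had 9 peaks in 5 regions, 4 of which were found in 1 list each. The lists with a peak were those of titer 32, 16, 8 and 2 with fixed antibody, and 5-T1, 10-T1b and 20-T1. The region in 4 lists, chr12:6820873-6821934, covered the TSS of GPR162, an orphan G protein-coupled receptor gene just downstream of CD4, with folds of 3.91 to 4.77. The peak close to the CD4 TSS was seen in the library of titer 8 only, 630 bp upstream, with a fold of 3.72. The other regions were seen once, in 0.31-T32 with a fold of 4.86, in 0.62-T16 with 4.05 and in 5-T1 with 3.42. Without peaks within 1 kb of the TSS of another gene, CD4 had a peak in 4 lists. With a flank of 10 kb it had one in 14 lists.

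CD8A (NCBI gene 925, chr2:86784605-86808396), MS4A1 (NCBI gene 931, chr11:60455847-60470752), PAX5 (NCBI gene 5079, chr9:36833269-37034268) and EBF1 (NCBI gene 1879, chr5:158695920-159099916) had no peak in any list. They differed in how far away the acetylated chromatin was. The stretch around the TSS without a peak in any list was 354.7 kb at CD8A, 587.1 kb at MS4A1, 312.9 kb at PAX5 and 1268.9 kb at EBF1. Of 19569 protein-coding TSSs, 82.3%, 87.4%, 81.4% and 93.8% lay in a shorter stretch or inside a region. The median stretch of the TSSs outside regions was 98.6 kb. The MS4A1 stretch held 12 protein-coding TSSs, the CD8A stretch 4, and the other stretches only that of PAX5 or EBF1. The nearest peak to the PAX5 TSS was 44.7 to 45.7 kb away in every list and belonged to a region in 14 lists. At EBF1 the nearest peak was 28.6 to 87.8 kb away, and the region bounding the stretch at 28.6 kb was found in 1 list. At CD8A the distance was 87.2 to 184 kb and at MS4A1 205 to 261 kb. A gene without a peak was not rare among genes of this size. Of 1388 genes at least as long as PAX5, 35.1% had no peak in any list, and of 474 at least as long as EBF1, 43.0% had none. The shares were 22.3% for CD8A and 22.5% for MS4A1. Copy number was not analysed here.

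Sporadic and consistent peaks were then compared per library. Of the 30 regions in the 9 windows, 4 were consistent (13.3%, compared with 10.8% of all regions), 17 were sporadic (56.7%, compared with 67.2%) and 12 were found in 1 list (40%, compared with 46.3%). By peaks, 121 of 246 belonged to consistent, 100 to intermediate and 25 to sporadic regions. Of all 1065840 peaks of the series, the numbers were 559150, 344317 and 162373. The 4 consistent regions of the windows lay only in those of CD2 (1) and CD79A (3). Of the CD79A regions, chr19:41880959-41884143 and chr19:41884382-41888482 were nearest to the TSS of ARHGEF1. The consistent peaks had a median fold of 6.13 and a median width of 751 bp, and the sporadic ones 4.05 and 191 bp. All peaks of the series had medians of 5.90 and 709 bp and of 3.90 and 236 bp.

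With fixed antibody, sporadic peaks numbered 4 of 15, 2 of 18, 1 of 24, 3 of 18, 2 of 25, 3 of 21 and 2 of 18 from titer 32 down to 0.5. With normalized antibody they numbered 0 of 12, 0 of 12, 2 of 17, 1 of 15, 1 of 19, 2 of 15 and 2 of 17 from 312 to 20000 ng. The sporadic share was 26.7% in 0.31-T32, where it was 13.5% over all peaks of that list, and 0% in 0.31-T1 and 0.62-T1, where it was 9.67% and 15.2%. The arms held 17 and 8 sporadic peaks in total, and their ranges of 1 to 4 and 0 to 2 per library overlapped. The difference was not tested, and these counts are too small to rank libraries.

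**Figure D3:**
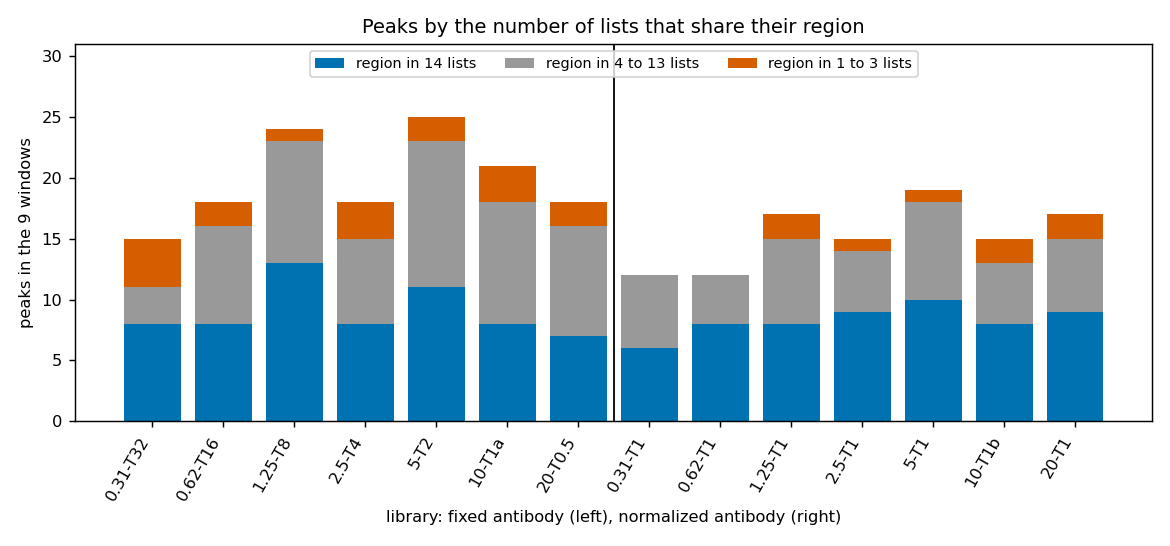
Bars give the number of peaks in the 9 windows per library, stacked by the number of lists that share their region. The totals ranged from 12 to 25, and the orange part, regions in 1 to 3 lists, from 0 to 4.

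By arm, 14 of the 30 regions had peaks in fixed-antibody lists only, compared with 27.1% of all regions, and 3 of 30 in normalized lists only, compared with 33.6%. Of the 14, 12 were sporadic, and the others were the region beside the CD3D TSS and the region in 4 lists downstream of CD3E. The windows held 139 peaks with fixed antibody and 107 with normalized antibody, whereas the whole lists held 518911 and 546929. The summed covered length of the windows was closer, at 79989 and 77043 bp, and that of the whole lists was 354.9 and 478.4 Mb. At equal titer and amount, 10-T1a had peaks in 14 regions of the windows and 10-T1b in 11, and they shared 8, which is 57.1% and 72.7% of each. Over all regions the shared part was 65.7% and 62.6%.

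**Figure D4:**
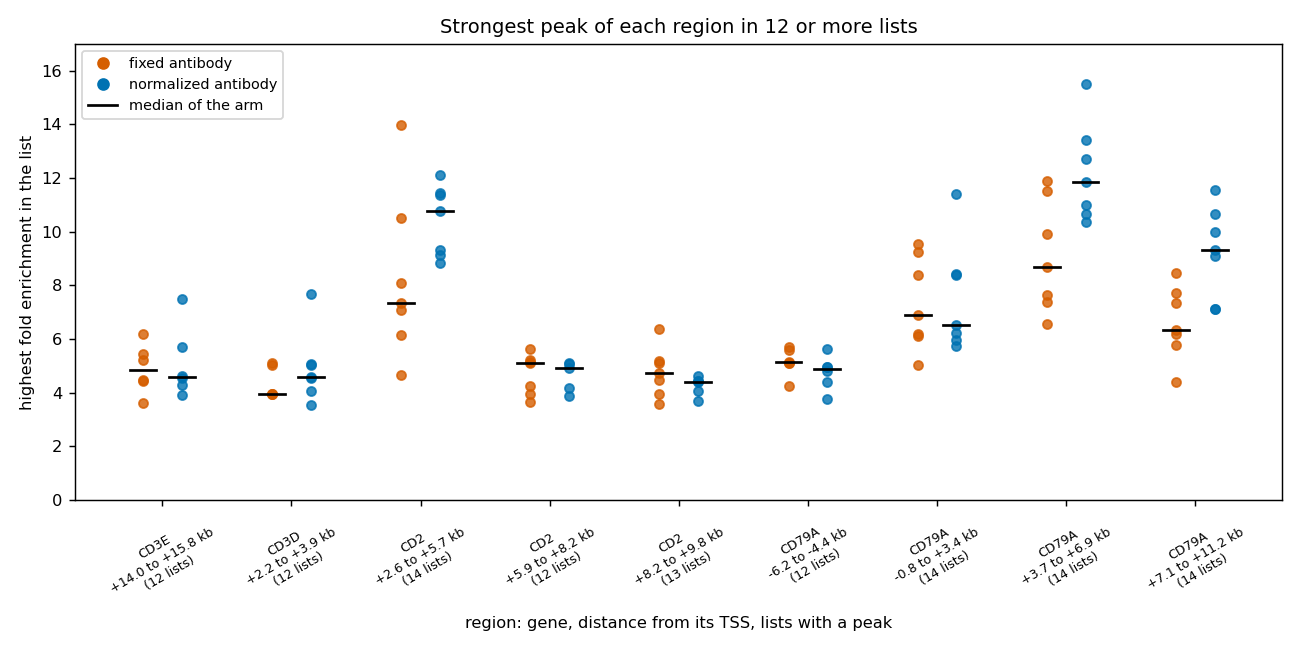
Points are the highest fold enrichment per list in each region found in 12 or more lists, by arm, and bars are the median of the arm. At the CD2 region in 14 lists the medians were 7.35 and 10.8, and at the CD79A region over its own TSS 6.90 and 6.54.

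The covered length of each window was set against log2(titer) over the 7 fixed-antibody libraries, to ask whether more antibody per chromatin changed these loci. Among the genes tested were 5 of the 9, since CD8A, MS4A1, PAX5 and EBF1 had no peaks. The cover of CD3E, CD3D and CD2 fell with titer (3 of 5, compared with 51.6% of 13508 genes), by exact permutation tests with Benjamini-Hochberg adjustment over all 13508 genes.

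CD3E covered 0, 713, 900, 902, 1321, 1874 and 1791 bp from titer 32 down to 0.5. Pearson's r was −0.96 (exact p = 0.00119, adjusted p = 0.0116) and Spearman's rho −0.96 (exact p = 0.00278, adjusted p = 0.0176). When the 2 libraries of extreme titer, 0.31-T32 and 20-T0.5, were left out, r was −0.93 (exact p = 0.0167).

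CD3D covered 318, 578, 1068, 784, 1544, 1757 and 2619 bp in the same order. Pearson's r was −0.95 (exact p = 0.00198, adjusted p = 0.0135) and rho −0.96 (exact p = 0.00278, adjusted p = 0.0176). Without the 2 extreme libraries r was −0.90 (exact p = 0.0667).

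CD2 covered 2203, 2303, 2923, 2735, 3432, 3538 and 3897 bp. Pearson's r was −0.97 (exact p = 0.00159, adjusted p = 0.0125) and rho −0.96 (exact p = 0.00278, adjusted p = 0.0176), and r was −0.93 without the 2 extreme libraries (exact p = 0.05).

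CD79A covered 5661, 5046, 6103, 6343, 7723, 5610 and 5377 bp, with r = −0.17 (exact p = 0.747, adjusted p = 0.777) and rho = 0.00 (exact p = 1). CD4 covered 0 to 318 bp, with r = 0.52 (exact p = 0.236, adjusted p = 0.282) and rho = 0.52 (exact p = 0.245). Without the 2 extreme libraries r was −0.43 for CD79A (exact p = 0.483) and 0.42 for CD4 (exact p = 0.467).

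The whole lists moved in the same direction, covering 32.8 Mb in 0.31-T32 and 63.4 Mb in 20-T0.5. With the covered length divided by that of the list, none of the 3 calls remained: r was −0.85 for CD3E (exact permutation, adjusted p = 0.0724), −0.87 for CD3D (adjusted p = 0.0939) and 0.48 for CD2 (adjusted p = 0.49). Without 0.31-T32 and without that division, r was −0.95 for CD3E, −0.93 for CD3D and −0.96 for CD2. The adjusted p-values of the exact permutation test were then 0.0559, 0.0593 and 0.0559.

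**Figure D5:**
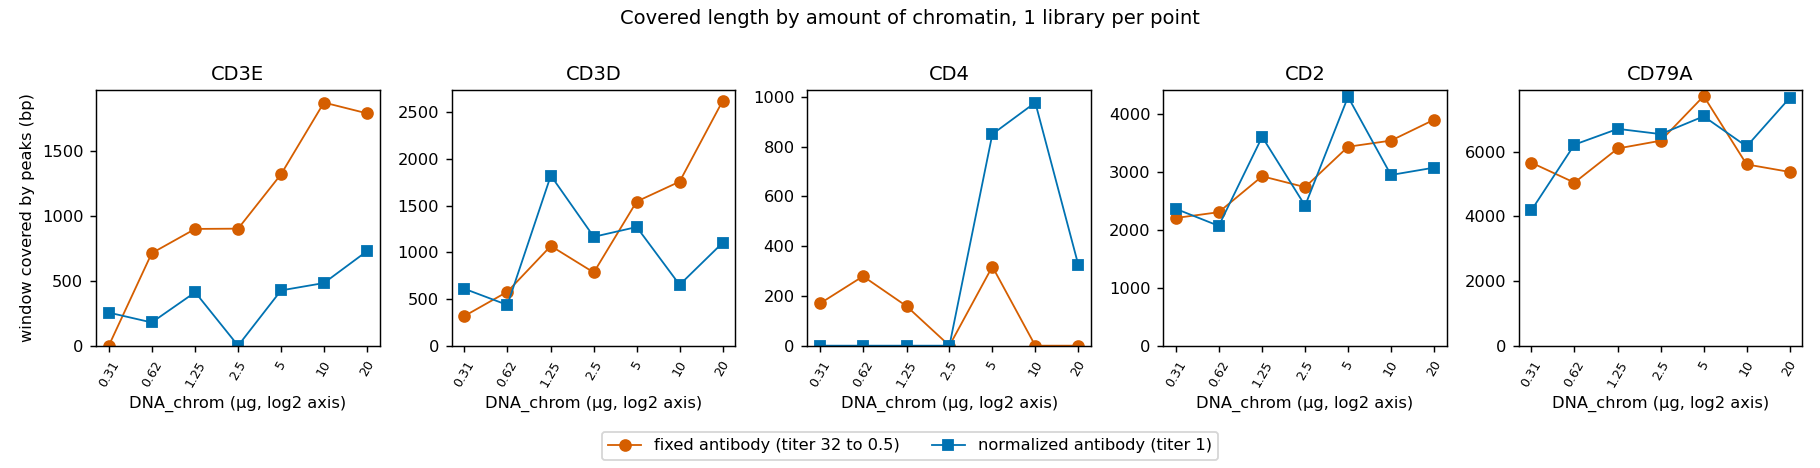
Points are single libraries, with the bp of the window covered by peaks against DNAchrom on a log2 axis. In the fixed-antibody arm CD3E rose from 0 to 1791 bp, CD3D from 318 to 2619 bp and CD2 from 2203 to 3897 bp between 0.31 and 20 µg, while the titer fell from 32 to 0.5.

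At titer 1, where antibody and DNAchrom changed together, none of the 5 genes passed the test (0 of 5, and 0% of 13527 genes, with the cover rising). By the unadjusted exact permutation p under 0.05, 2722 genes rose and 11 fell, and Spearman's rho also gave 0 genes after adjustment. CD79A covered 4193, 6221, 6709, 6547, 7097, 6166 and 7662 bp from 0.31 to 20 µg (r = 0.76, exact p = 0.0341, adjusted p = 0.216, rho = 0.61, exact p = 0.167). When the 2 extreme amounts, 0.31-T1 and 20-T1, were left out, r was 0.12 (exact p = 0.85). For the other 4 genes r was 0.22 to 0.67, with adjusted p-values of 0.314 to 0.777 (exact permutation).

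The arms were then compared at the 6 amounts with different titers, as the mean of normalized minus fixed-antibody cover, by an exact sign-flip permutation test. With 6 amounts the smallest possible p is 0.0312, and 0 of 13549 genes passed Benjamini-Hochberg adjustment. Without the pairing by amount, in an exact permutation test of 6 against 6 libraries, 3700 genes passed and none of the 5 did. This unpaired test was chosen after seeing the data. It treats the libraries of an arm as replicates, although they differ in amount and, with fixed antibody, in titer. In the matched comparison, the median gene had 842 bp more cover in the normalized arm. By the exact sign-flip permutation test, 42.3% of genes were higher there at an unadjusted p under 0.05, compared with 0 of 5 here. The mean difference of CD3E was negative, −604.5 bp (exact p = 0.0625, adjusted p = 0.11). It was higher in the normalized arm at 0.31 µg only, by 255 bp, and the differences at the other 5 amounts were −1063 to −488 bp, and 1.68% of the genes tested had a lower difference. The pair of equal titer also differed, with 1874 bp in 10-T1a and 483 bp in 10-T1b.

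The differences were −84.3 bp for CD3D, 41.7 bp for CD4, 52.8 bp for CD2 and 363 bp for CD79A, with exact permutation p-values of 0.844, 0.812, 0.875 and 0.562. CD3D was higher in the normalized arm at 3 of 6 amounts, CD4 at 2, CD2 at 3 and CD79A at 4. At equal titer and amount, 10-T1b minus 10-T1a was −1105 bp at CD3D, −593 bp at CD2, 977 bp at CD4 and 556 bp at CD79A. These gaps were each larger than the mean difference of the gene over the 6 amounts.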

How the data were processed

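H3K27ac ChIP-seq of K562 was represented by 14 peak lists, 1 per ChIP library. The authors aligned the reads with BWA (0.5.9 in the submitters' processing notes, which also name CASAVA 1.4 and hg38). The paper describes peak calling with MACS2 in Partek Flow, and the lists were called per library against 1 input per arm. The deposited fold enrichment is a ratio, and the deposited significance values are the −log10 of the p-value and of the q-value. The paper names hg19, but peaks ran past the chromosome ends of GRCh37 on 7 chromosomes, so the lists were read as GRCh38. The lists reach down to a −log10 q of 1.30, whereas the paper states an FDR of 1%. At a −log10 q of at least 2, every list held more peaks than the paper reports for that library. Whether the lists are the calls that the paper describes is therefore unknown. Arms follow the titer and the input used for each list, since the labels of 10-T1a and 10-T1b show no arm. The 2 input libraries have no peak list.

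Windows used RefSeq genes of GRCh38.p14, and the TSS was the outer end of the gene at its 5′ side. Strand came from the RefSeq promoter table for 15812 genes and by symbol from GENCODE v44 for 3805, and both gave the same strand for 15187 of 15249 genes. Trends were tested for genes with a peak in at least 4 lists. The 9 genes and all lists of genes were chosen with earlier results of these data known. Genes were named when they were among the 9, when their TSS lay in a window, or as the first 4 of each wider lymphoid set by number of lists. ACTB, GAPDH, PABPC1, SMARCA4 and MYT1 were loci of the cell line check. Regions named were the consistent ones and up to 3 more per gene by number of lists, then fold, and other CD4 regions, the CD3E peak inside the gene and RPS19, whose body overlaps the CD79A window, were named after their values had been seen. The statistics were tested on simulated data. Computation used Python 3.11.15, numpy 2.4.6, pandas 2.3.3, scipy 1.17.1 and matplotlib 3.10.9.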

Additional observations from a re-analysis of the deposited data

Results flagged for a closer look

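The covered length of the CD79A window in 0.31-T1, 4193 bp, stood apart from the other 6 normalized libraries, of which the next covered 6166 bp, by Dixon's gap test. The gap was 0.569 of the range, at the edge of the critical value, and chance flags about 1 in 20 such groups. The whole list of 0.31-T1 also had the fewest peaks (68137) and the least cover (54.4 Mb) of the normalized arm. For this library the paper reports the lowest unique mapping rate and complexity of the arm. Without this library the correlation of CD79A cover with DNAchrom was r = 0.58 (exact permutation, adjusted p = 0.72).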

How the results depend on the processing

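No list had a peak at CD8A, MS4A1, PAX5 or EBF1 under any threshold, flank or window tried. Genes with a peak in all lists fell from 3 to 1 at a −log10 q of at least 5 or with the window limited to 1 kb around the TSS. At a −log10 q of at least 5, 2 regions were in all lists and 3 were sporadic. Sporadic regions numbered 8 without a flank and 11 within 5 kb of the TSS, and within 1 kb 1 region was consistent and 1 sporadic. The genes whose cover was called against titer, 7002, became 0 by number of peaks, 646 after division by the covered length of the list, and 1511 to 5643 when 1 library was left out (1511 without 0.31-T32, 2314 without 2.5-T4 and 4558 without 10-T1a). Genes that differed between the arms at an unadjusted exact permutation p under 0.05, 5840, became 927 by number of peaks and 3391 after that division. They became 0 without any 1 of the 6 pairs, where 5 pairs cannot reach 0.05.

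The calls of CD3E, CD3D and CD2 against titer were lost after division by the covered length of the list. They were also lost without 0.31-T32, where r was −0.96 to −0.93. By exact permutation, that of CD2 was also lost at a −log10 q of at least 3 (adjusted p = 0.0508), those of CD3E and CD3D at 5 (0.0866 and 0.0665), and all 3 by number of peaks (0.638, 0.366 and, for CD2, 0.976).

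For single genes, the direction turned as follows, and the cause was not tested. By number of peaks, r with titer was 0.16 for CD2 and 0.11 for CD79A, r with DNAchrom was −0.29 for CD2, and the matched difference was 0 peaks for CD4, −1.50 for CD2 and −0.33 for CD79A. After division by the covered length of the list, r with titer was 0.48 for CD2 and 0.91 for CD79A, and the matched difference, in bp per Mb of the list, was −0.92 for CD4, −17.7 for CD2 and −36.6 for CD79A. The CD3D difference was 44.5 bp at a −log10 q of at least 3 and 290 bp at 5, and that of CD2 was −39.4 bp over all 7 amounts. Without 1 library or pair, r of CD79A with titer was −0.47 to 0.031 and r of CD3D with DNAchrom was −0.0088 to 0.57. The matched differences were then −252 to 202 bp for CD3D, −56.4 to 106 bp for CD4, −109 to 229 bp for CD2 and −21.8 to 729 bp for CD79A. The matched difference pairs the arms by amount of DNAchrom. Without this pairing, in an exact permutation test of 6 against 6 libraries chosen after seeing the data, 6431 genes had an unadjusted p under 0.05 and 3700 passed adjustment. The unpaired test treats libraries of different amounts as replicates of an arm. By this exact test the p of CD3E was 0.0476 (adjusted p = 0.102), and none of the 5 genes passed adjustment.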
